A study of Homo sapiens with 12 samples.

Results

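The nuclear genes of the mitochondrial respiratory chain were followed in HCC70 cells, an established basal-like breast cancer line, with and without an shRNA against LAD1. Members were all gene symbols of the deposited table that name a complex I subunit (NDUFA, NDUFB, NDUFC, NDUFS or NDUFV and a number), an SDH subunit A to D, a symbol starting with UQCR, CYC1, a COX4 to COX8 symbol of that simple form, or a symbol starting with ATP5 and a letter. The rule found 86 of 26365 genes. They are 37 genes of complex I, 4 of complex II, 11 of complex III, 14 of complex IV and 20 of complex V. Of these, 79 are subunit genes and 7 are not, namely the read-through ATP5J2-PTCD1, the pseudogenes ATP5EP2 and UQCRBP1, the copies ATP5L2 and UQCRHL, and the related proteins ATP5S and ATP5SL. NDUFA4 was counted with complex I after its symbol, although its product is now assigned to cytochrome c oxidase.

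The tested cells stably expressed a LAD1-targeting shRNA (shLAD1 cells), and the control cells a scrambled shRNA (scramble cells). All cells were first deprived of serum overnight. Each kind of cell then received epidermal growth factor (EGF, 50 ng/ml) for 0, 40 or 240 min, and every one of these 6 groups has 2 libraries. The 40 and 240 min times come with EGF only and the labels name a single LAD1 shRNA, so EGF and elapsed time, and LAD1 loss and other effects of that shRNA, cannot be told apart. LAD1 had 865 to 2535 normalized counts in the 6 shLAD1 libraries, against 5808 to 10194 in the 6 scramble libraries, a log2 fold change of -2.39 ± 0.08. Libraries held 12428618 to 16721013 reads, of which members took 0.724% to 0.856%. All 7 basal and all 4 epithelial marker genes reached a median of 10 normalized counts, the basal TP63 with a median of only 23.6. Of 2 hormone receptor genes, ESR1 also did (median 24.2) and PGR did not (median 0). Of 8 fibroblast, endothelial and leukocyte markers, COL1A1 and CD68 reached a median of 10 normalized counts, the summed list was 1805 to 2391 in shLAD1 libraries and 1018 to 1286 in scramble libraries, and its part in the results below was not tested. PTPRC and COL1A2 had a median of 0.

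The respiratory chain passes electrons from NADH through complex I, and from succinate through complex II, to ubiquinone, complex III, cytochrome c and complex IV, where oxygen is reduced. Complexes I, III and IV pump protons, and complex V (ATP synthase) uses the gradient to make ATP. Most subunits are encoded in the nucleus, many of them under promoters bound by NRF1 and ETS-family factors. Values below are normalized counts (reads divided by a size factor of each library), and differences are log2 fold changes on the log2(normalized count + 1) scale ± the standard error of a limma-trend fit over the 13950 genes that reached 10 normalized counts in 2 or more libraries. A gene counted as called where its p, adjusted by Benjamini-Hochberg over those genes, was under 0.05.

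Of the 86 members, 79 passed that filter on low values and 7 did not: COX6A2, COX7A1, COX7B2, COX8C, UQCRBP1, ATP5L2 and ATP5J2-PTCD1. Several of these 7 are tissue forms with a common partner. COX6A1 had 1166 to 1513 normalized counts over shLAD1 libraries and 1141 to 1278 over scramble libraries, whereas COX6A2, its heart and muscle form, stayed at or below 2.07. COX7A2 had 1100 to 1395 over all libraries and its muscle form COX7A1 at most 5.57. COX8A had 2200 to 2576, and COX8C, its testis form, had reads in a single library. Per kilobase of exon, mean levels were 2233 for COX6A1 against 2.35 for COX6A2, 1162 for COX7A2 against 2.88 for COX7A1, and 4698 for COX8A against 0.372 for COX8C. The HCC70 libraries thus held the common forms of these subunits, at levels per kilobase far above those of the muscle and testis forms. By mean normalized count, a level that also depends on transcript length, the top member of each complex was NDUFS6 for complex I (2927), SDHA for II (4146), CYC1 for III (3700), COX6B1 for IV (2489) and ATP5B, the catalytic beta subunit, for V (5625).

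Whether loss of LAD1 changes these genes was asked with the mean of the 3 differences at 0, 40 and 240 min. It sets 6 shLAD1 libraries against 6 scramble libraries, but each 6 are 2 numbered replicates taken at 3 times. With each number averaged over the times, 0 of 13950 genes were called, so the calls below rest on treating the times as separate. In this fit, small falls spread over all 5 complexes were the main pattern. Of 79 members, 21 were called lower, written below as fell. In this comparison 18.6% of all tested genes were called, 9.25% higher and 9.3% lower. The 1 member called higher, COX6B2, reached 10 normalized counts in shLAD1 libraries only, so it passed the filter through the cells in which it is high, and its call is not read as a result. The members' median log2 fold change was -0.06, and 51 of 79 were below 0, as were 50% of all tested genes. The called falls were between -0.29 and -0.13 on the log2 scale. In bulk RNA, less RNA per cell and fewer cells of a type cannot be told apart.

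In complex II, which oxidises succinate and also serves the citric acid cycle, 3 of 4 genes fell. SDHD, a membrane anchor, had 465, 506 and 545 normalized counts as its lowest, median and highest value in shLAD1 libraries, against 556, 616 and 657 in scramble libraries. SDHA, the flavoprotein, had 3390, 3781 and 4235 in shLAD1 libraries, against 4147, 4448 and 4869 in scramble libraries. SDHC, the other membrane anchor, had 878, 934 and 1019 in shLAD1 libraries, against 1021, 1064 and 1088 in scramble libraries. For SDHD and SDHC no shLAD1 library reached any scramble library, and for SDHA the ranges touched only between shLAD1 at 0 min and scramble at 240 min. The differences were -0.27 ± 0.05 for SDHD (adjusted p = 0.0104), -0.22 ± 0.05 for SDHA (adjusted p = 0.0176) and -0.17 ± 0.04 for SDHC (adjusted p = 0.0259). SDHB, the iron-sulfur subunit, had 1727, 1935 and 2060 in shLAD1 libraries, against 1892, 1930 and 1998 in scramble libraries. Its difference was -0.02, with a 95% interval from -0.12 to 0.08, so the shLAD1 range enclosed the scramble range. SDHA has near-identical pseudogene copies, and how the authors' counting shared reads among them is not given in the sources used here.

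**Figure D1:**
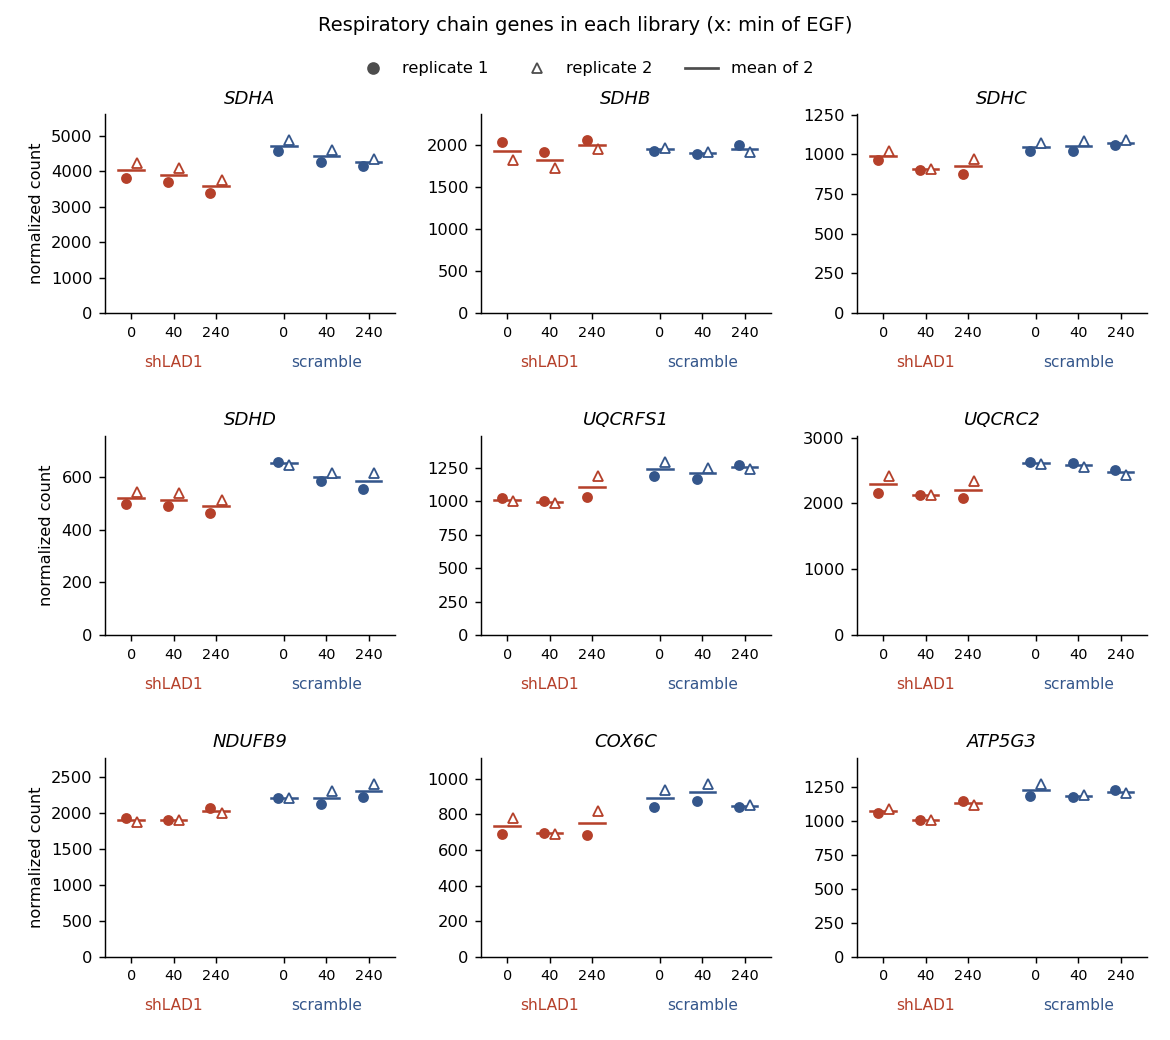
Normalized counts of 9 members in each of the 12 libraries by shRNA and min of EGF, with filled circles for replicate 1, open triangles for replicate 2 and bars for the mean of 2. SDHA, SDHC, SDHD, UQCRFS1, UQCRC2, NDUFB9, COX6C and ATP5G3 were lower in shLAD1 cells on average, and SDHB ranged from 1727 to 2060 in shLAD1 libraries around the scramble values of 1892 to 1998.

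In complex III, which carries electrons from ubiquinol to cytochrome c, 3 of 10 tested members fell. UQCRFS1, the Rieske iron-sulfur protein, had 986, 1011 and 1187 as its lowest, median and highest value in shLAD1 libraries, against 1171, 1243 and 1293 in scramble libraries. UQCRC2, a core protein, had 2083, 2140 and 2418 in shLAD1 libraries, against 2425, 2578 and 2626 in scramble libraries. CYC1, the cytochrome c1 heme protein, had 3266, 3472 and 3755 in shLAD1 libraries, against 3732, 3894 and 4144 in scramble libraries. One shLAD1 library of UQCRFS1 and one of CYC1 entered the scramble range, and none of UQCRC2 did. The differences were -0.25 ± 0.05 for UQCRFS1 (adjusted p = 0.00781), -0.21 ± 0.04 for UQCRC2 (adjusted p = 0.0122) and -0.17 ± 0.04 for CYC1 (adjusted p = 0.0192).

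In complex I, the NADH dehydrogenase, 9 of 37 members fell. NDUFB9, an accessory subunit of the membrane arm, had 1868, 1918 and 2062 in shLAD1 libraries, against 2126, 2214 and 2400 in scramble libraries. NDUFB10, another membrane arm subunit, had 1093, 1177 and 1210 in shLAD1 libraries, against 1225, 1320 and 1389 in scramble libraries. Neither gene had a shLAD1 library in the scramble range. The differences were -0.21 ± 0.04 for NDUFB9 (adjusted p = 0.00783) and -0.17 ± 0.04 for NDUFB10 (adjusted p = 0.0163). NDUFS3, a core subunit of the peripheral arm, and NDUFA6, an accessory subunit, fell by 0.18 and 0.17 on the log2 scale. Others that fell, named after their values were seen, were NDUFV1 and NDUFS1, core subunits of the NADH-oxidising module, with NDUFA10 and NDUFA4, and they fell by 0.14 to 0.18. NDUFS6 had 2640 to 2988 in shLAD1 libraries, against 2830 to 3153 in scramble libraries, and was not called. NDUFB3, a membrane arm subunit named after its values were seen, had 531 to 573 in shLAD1 libraries, all above the 489 to 531 of the scramble libraries, without passing the test (0.08 ± 0.04, adjusted p = 0.203).

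In complex IV, cytochrome c oxidase, 2 of 10 tested members fell. COX6C had 684, 693 and 817 in shLAD1 libraries, against 843, 864 and 970 in scramble libraries, the largest fall among the called members (-0.29 ± 0.06, adjusted p = 0.0128). COX7C had 897, 951 and 1050 in shLAD1 libraries, against 1005, 1075 and 1130 in scramble libraries (-0.16 ± 0.04, adjusted p = 0.0231). Both are small structural subunits, and the ranges were apart for COX6C and overlapped for COX7C. COX6B2, a form of subunit VIb known mainly from testis, had 8.21 and 7.12 normalized counts at 0 min, 11.6 and 11.5 at 40 min and 18.4 and 10.0 at 240 min in shLAD1 cells. In scramble cells it had 1.04 and 0 at 0 min, 3.17 and 0.835 at 40 min and 2.25 and 2.23 at 240 min. Every shLAD1 library was above every scramble library, at levels of a few reads, and no test is given because the filter kept this gene through its shLAD1 values. COX6B1, the common form, had 2309 to 2671 in shLAD1 libraries, against 2392 to 2678 in scramble libraries, and was not called.

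In complex V, 4 of 18 tested members fell. ATP5G1, ATP5G2 and ATP5G3 encode the same membrane ring subunit c. ATP5G3 had 1004, 1074 and 1147 in shLAD1 libraries, against 1177, 1197 and 1272 in scramble libraries. ATP5G1 had 561, 630 and 703 in shLAD1 libraries, against 688, 728 and 770 in scramble libraries. ATP5G2, the remaining subunit c gene, had 1464, 1568 and 1770 in shLAD1 libraries, against 1356, 1490 and 1582 in scramble libraries. Thus 2 of the 3 subunit c genes fell, by 0.18 ± 0.04 for ATP5G3 (adjusted p = 0.0121) and by 0.21 ± 0.05 for ATP5G1 (adjusted p = 0.024), and ATP5G2 stood at 0.09 with a 95% interval from -0.01 to 0.20. ATP5O, the stalk subunit that confers oligomycin sensitivity, fell by 0.20 ± 0.05 (adjusted p = 0.0235), and ATP5A1, the alpha subunit, by 0.13 ± 0.04 (adjusted p = 0.0353). ATP5B had 5253 to 6142 in shLAD1 libraries, against 5411 to 5792 in scramble libraries, and was not called.

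**Figure D2:**
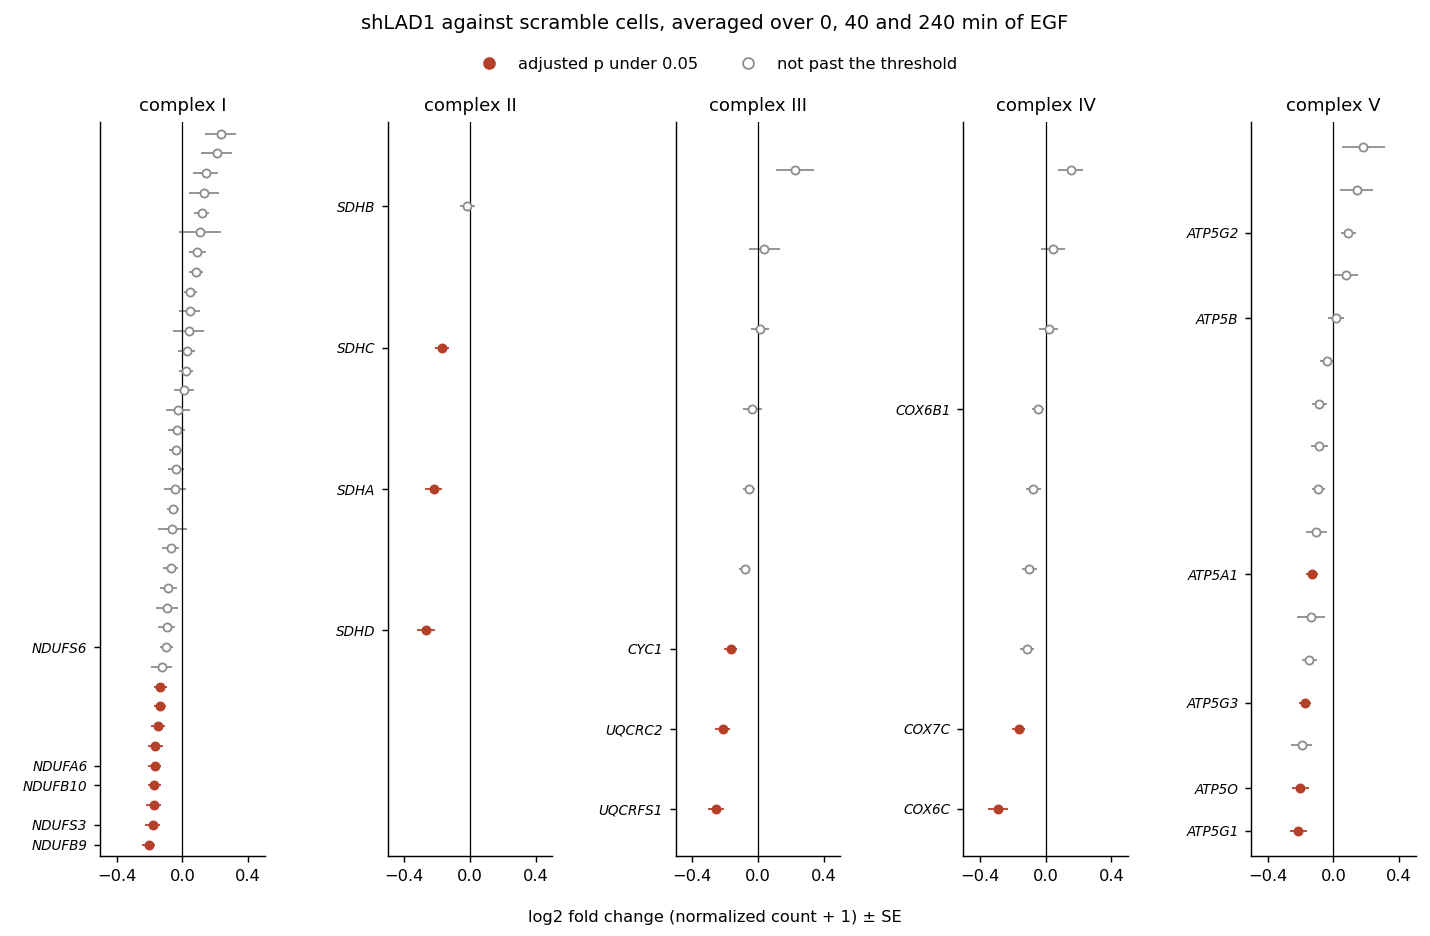
Log2 fold change of shLAD1 against scramble cells as the mean of 3 times ± standard error for the tested members of each complex, except the low-count COX6B2, UQCRHL and ATP5EP2. Names are given for up to 4 called members of each complex with the smallest adjusted p, the member with the highest mean count, and the SDH and subunit c genes. Filled symbols passed an adjusted p of 0.05, and all 21 of them lie left of 0, with 9 in complex I, 3 in II, 3 in III, 2 in IV and 4 in V.

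The 6 libraries of an shRNA are 2 numbered replicates taken at 3 times, and libraries with the same number deviated together from their group means. With the replicate number as a block, 34 members were called, 8 higher and 26 lower, beside 36.1% of all tested genes (18.2% higher and 17.9% lower). With each shRNA and number averaged over the times to 1 value, which leaves 2 against 2, limma-trend called 0 of 79 members and 0 of 13950 genes (0%). In that fit 7 members had an unadjusted p under 0.05. The share of all genes with such a p was not taken, so this count is not read as a result. With no averaging, edgeR called 23 members, beside 18.5% of all genes, and DESeq2 22, beside 19.3%. Leaving out replicate 1 of shLAD1 cells at 0, 40 or 240 min left 11, 12 and 11 members called, beside 12.8%, 13.2% and 12% of all genes. Leaving out replicate 2 of shLAD1 cells at these times gave 22, 21 and 23, beside 19.4%, 18.6% and 20.1%. Leaving out replicate 1 of scramble cells gave 13, 12 and 11, beside 13.3%, 12.6% and 13.5%, and leaving out replicate 2 gave 10, 7 and 11, beside 11%, 10.4% and 11.6%. The share of all genes called was also below 18.6% in each omission that left 13 or fewer members. The falls called under each of the 12 omissions were 6, namely UQCRFS1, NDUFB9, SDHD, ATP5G3, UQCRC2 and COX6C. Apart from COX6B2, which the filter kept through its shLAD1 values, every shLAD1 library lay above every scramble library for NDUFB3 only. Its ranges nearly touched, with 530.97 as the lowest shLAD1 value and 530.54 as the highest scramble value. Every shLAD1 library lay below every scramble library for 9 members. Of all genes, 3.16% lay above and 3.99% below.

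At single times, 2 libraries against 2, the test called 0 members at 0, 40 and 240 min, where 1.56%, 1.65% and 0.953% of all tested genes were called. Unadjusted p was under 0.05 for 11, 27 and 8 members, where it was for 15.7%, 16.1% and 15.1% of all genes, and edgeR and DESeq2 also called 0 at each time. With the replicate block 7, 20 and 5 were called, beside 11.5%, 11.3% and 10.5% of all genes. The members' medians were -0.05 at 0 min, -0.12 at 40 min and -0.02 at 240 min. All shLAD1 libraries lay below all scramble libraries for 34, 49 and 25 members at these times, where 22.7%, 23.2% and 22.4% of all genes did. They lay above for 7, 4 and 17 members, where 21.9%, 23.4% and 22.2% of all genes did. COX6B2, kept by the filter through its shLAD1 values, is among these members at each time. At 0 min UQCRFS1 had 1022 and 1000 normalized counts in shLAD1 cells, against 1194 and 1293 in scramble cells. The log2 fold changes of the authors' deposited table match the 0 min comparison. That table gave 0 of 79 members an adjusted p under 0.05, beside 495 of 13909 genes. It gave 10 members an unadjusted p under 0.05. No share of all genes was taken for this, so that count is not read as a result about the members. Its lowest member value was for UQCRFS1, with a log2 fold change of -0.30 and an adjusted p of 0.105 in the authors' deposited table.

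The members did not vary alike between the replicates of shLAD1 cells. UQCRQ, a small complex III subunit, had 1349, 1127 and 1174 normalized counts in replicate 1 of shLAD1 cells at 0, 40 and 240 min, against 896, 1022 and 895 in replicate 1 of scramble cells. In replicate 2 it had 927, 865 and 917 in shLAD1 cells, against 852, 908 and 807 in scramble cells. NDUFB4 of complex I had 2741, 2342 and 2510 in replicate 1 of shLAD1 cells and 2034, 1979 and 2025 in replicate 2. Both genes were named after their values were seen. Replicate 1 was above replicate 2 at all 3 times for 37 of 79 members in shLAD1 cells (30.8% of all genes) and below at all 3 for 14 (32.4% of all genes). Of the 21 members that fell, 2 had replicate 1 higher at all times, and of the 57 not called, 34 did.

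Within replicate number 1 the median member difference between shLAD1 and scramble cells was -0.04, with 48 of 79 members below 0. Within number 2 it was -0.08, with 58 of 79 below 0, where 50.1% and 49.9% of all genes were below 0. Members below 0 in both numbers were 46, or 58.2% (34.0% of all genes). All 21 called falls were below 0 in both, from -0.31 to -0.11 in number 1 and from -0.27 to -0.08 in number 2. They were called from the mean of these same 2 numbers, so this is a description and not a separate test. Over the 76 members with a mean of at least 100 normalized counts, the gap between the shLAD1 replicates and the difference from scramble cells correlated at r = 0.794, against 0.404 over the 10231 genes at that level. Both measures contain the same shLAD1 libraries, and genes are not independent replicates, so these correlations are a description.

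**Figure D3:**
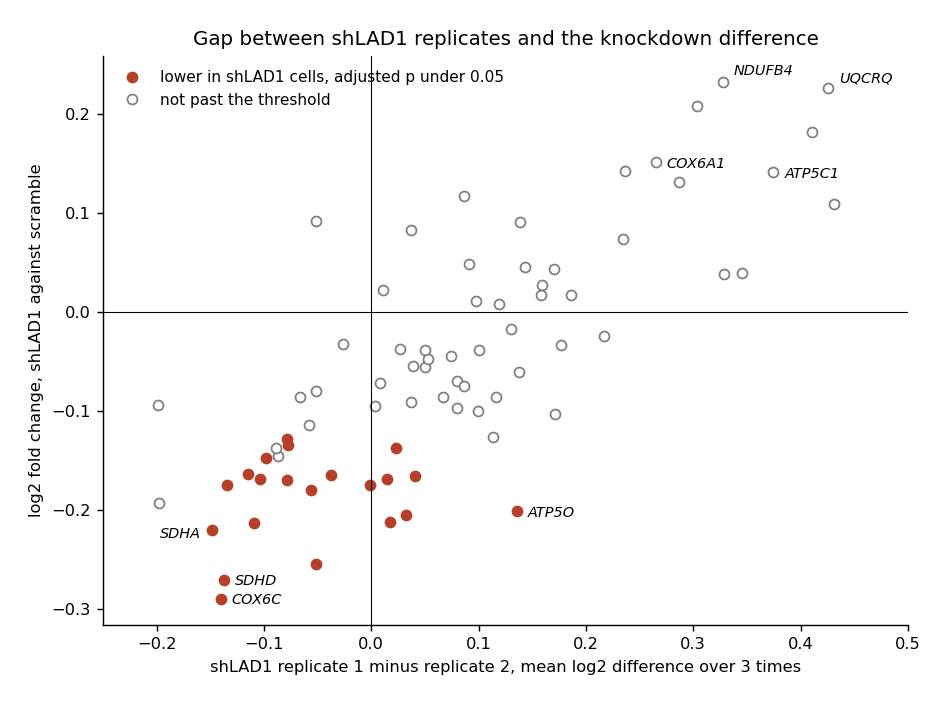
Mean log2 difference of shLAD1 replicate 1 from replicate 2 over the 3 times (x axis) against the log2 fold change of shLAD1 against scramble cells (y axis) for 76 members. Filled points are the 21 members that fell and lie mostly left of 0 on the x axis, while the members farthest to the right, among them UQCRQ and NDUFB4, lie above 0 on the y axis.

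Because members in all 5 complexes fell, promoters of members that fell are shown, 1 from each complex, from the RefSeq promoter table (GRCh38.p14). They were taken in order of adjusted p. Each is 250 bases before the annotated start, on the gene's strand, with motif matches in capitals. NDUFB9, COX6C and ATP5G3 are not shown.
NDUFB10, chr16:1959288-1959537, plus strand: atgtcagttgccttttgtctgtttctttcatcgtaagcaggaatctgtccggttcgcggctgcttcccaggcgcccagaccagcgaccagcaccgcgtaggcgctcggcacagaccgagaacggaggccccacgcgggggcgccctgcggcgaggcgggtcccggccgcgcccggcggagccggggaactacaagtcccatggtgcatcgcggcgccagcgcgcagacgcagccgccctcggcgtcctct
SDHD, chr11:112086623-112086872, plus strand: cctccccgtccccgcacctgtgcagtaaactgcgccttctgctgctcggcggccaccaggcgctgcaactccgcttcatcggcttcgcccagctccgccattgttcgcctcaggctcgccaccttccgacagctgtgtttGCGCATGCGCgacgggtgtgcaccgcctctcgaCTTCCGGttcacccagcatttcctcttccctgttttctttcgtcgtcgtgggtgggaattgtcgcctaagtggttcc
UQCRFS1, chr19:29213152-29213401, minus strand: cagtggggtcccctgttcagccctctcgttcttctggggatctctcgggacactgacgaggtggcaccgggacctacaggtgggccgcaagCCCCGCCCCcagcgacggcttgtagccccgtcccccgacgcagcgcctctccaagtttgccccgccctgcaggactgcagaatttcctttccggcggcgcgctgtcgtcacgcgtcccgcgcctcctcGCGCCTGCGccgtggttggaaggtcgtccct
COX7C, chr5:86617691-86617940, plus strand: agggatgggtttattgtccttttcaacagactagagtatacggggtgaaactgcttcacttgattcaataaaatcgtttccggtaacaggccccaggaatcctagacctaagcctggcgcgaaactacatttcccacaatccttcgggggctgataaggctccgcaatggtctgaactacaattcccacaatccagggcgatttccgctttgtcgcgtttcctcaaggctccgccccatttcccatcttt
ATP5O (ATP5PO), chr21:33915805-33916054, minus strand: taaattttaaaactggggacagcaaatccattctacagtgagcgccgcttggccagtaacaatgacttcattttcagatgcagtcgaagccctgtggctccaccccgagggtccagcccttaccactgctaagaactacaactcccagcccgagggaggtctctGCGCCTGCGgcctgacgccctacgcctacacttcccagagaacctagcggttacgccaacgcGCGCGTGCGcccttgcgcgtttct

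The promoters were searched on both strands for 4 motifs: NRF1 (GCGCNTGCG), ETS (CCGGAAG), YY1 (AAGATGGCG) and Sp1 (GGGGCGGGG). Matches of different motifs overlapped in 0 of 62 promoters of tested subunits and in 31 of all 27305. The NRF1 letters begin 110 bases before the start in SDHD, where the other strand matches 1 base further on, 31 before it in UQCRFS1, and 86 and 24 before it in ATP5O. SDHD also holds the ETS letters 77 bases before the start, and UQCRFS1 the Sp1 letters 159 bases before it. NDUFB10 and COX7C held none of the 4 in this window. Of the 62 tested subunits with a promoter in the table, 30.6% held the NRF1 letters, against 7.09% of all promoters and 12.8% of those of tested genes. The ETS letters were in 25.8% of the subunits, against 8.82% of all promoters and 15.5% of those of tested genes. The YY1 letters were in 1.61% of the subunits, against 0.641% and 1.03%, and with the 50 bases after the start included in 12.9%, against 1.85% and 3.92%. The Sp1 letters were in 14.5% of the subunits, against 15.4% and 26.7%. Among members that fell, 5 of 15 promoters held the NRF1 letters and 3 of 15 the ETS letters, and among members not called 14 of 46 and 13 of 46 did. A match is a description of the letters and not a binding site.

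The EGF response was asked next, at 40 and 240 min in each kind of cell. No member passed the main test, which did not pair the libraries by number, in any of the 6 EGF comparisons. Fits with the number as a block, given below, called some members. At 40 against 0 min, 0 of 79 members were called in shLAD1 cells, beside 1.04% of all tested genes, and 0 in scramble cells, beside 0.853%. At 240 against 0 min, 0 were called in shLAD1 cells, beside 18.5% of all tested genes, and 0 in scramble cells, beside 20.2%. At 240 against 40 min, 0 were called in shLAD1 cells, beside 16.4%, and 0 in scramble cells, beside 18.5%. The comparisons of 240 min within a kind of cell share their 240 min libraries. Unadjusted p was under 0.05 at 240 against 0 min for 1 member in shLAD1 cells and 5 in scramble cells. Of all genes, 31.3% and 33.0% had such a p. At 240 against 40 min it was for 3 and 5 members, beside 29.7% and 31.5% of all genes. At 40 against 0 min it was for 0 in both, beside 5.46% and 4.54%. The 95% interval of the fold change at 240 against 0 min lay within 0.5 on the log2 scale of 0 for 71 of 79 members in shLAD1 cells and 71 in scramble cells.

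Without a test, the positions of the 2 libraries per time can be read directly. At 40 against 0 min both later libraries lay below both earlier ones for 21 members and above for 3 in shLAD1 cells, where 11.7% and 12.8% of all genes did. In scramble cells they lay below for 11 and above for 12, where 16.1% and 16.2% of all genes did. At 240 against 0 min in shLAD1 cells, both later libraries lay below both earlier ones for 12 members and above for 11, where 26.6% and 26.8% of all genes did. In scramble cells they lay below for 34 members and above for 5, where 32.2% and 31.6% of all genes did. At 240 against 40 min they lay below for 1 member and above for 13 in shLAD1 cells, where 25.7% and 26.1% of all genes did. In scramble cells they lay below for 41 and above for 4, where 31.7% and 31.6% of all genes did. Thus more members lay below than above at 40 against 0 min in shLAD1 cells and at 240 min in scramble cells, and the tests of a difference between the cells at 40 and 240 against 0 min, given last, called 0 members.

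NDUFV1, the flavin-binding subunit, had 1146 and 1307 at 0 min, 1087 and 1228 at 40 min, and 1090 and 1119 at 240 min in shLAD1 cells. It had 1401 and 1381, 1378 and 1391, and 1156 and 1178 in scramble cells at these times. Its 240 against 0 min difference was -0.15 ± 0.08 in shLAD1 cells and -0.25 ± 0.08 in scramble cells, where the 240 min libraries lay below all earlier ones. NDUFV1 was named after its values were seen.

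With the replicate block, 2 members were called lower at 240 against 0 min in shLAD1 cells, SDHA among them, beside 30.5% of all genes. In scramble cells 5 were, among them SDHA, NDUFV1, ATP5G2 and NDUFA13, beside 32.7%. At 240 against 40 min the block called CYC1 higher in shLAD1 cells, beside 28.7% of all genes, and 2 members lower in scramble cells, NDUFV1 among them, beside 30.5%. NDUFA13, an accessory complex I subunit, was named after its values were seen. edgeR called 1 member at 240 against 0 min in shLAD1 cells, beside 18.3% of all genes, and 1 at 240 against 40 min in scramble cells, beside 18.5%. DESeq2 called 1 at 240 against 40 min in scramble cells, beside 17.9% of all genes, and both tools called 0 members in the other EGF comparisons. With a block within each shRNA, 5 and 10 members were lower at 240 against 0 min in shLAD1 and scramble cells, beside 46.2% and 48.1% of all genes. At 240 against 40 min that block called 12 members in shLAD1 cells and 13 in scramble cells, beside 44.6% and 46.3% of all genes. Under total-count scaling the median of all genes moved to -0.13 in shLAD1 cells and -0.14 in scramble cells, the members' median to -0.16 and -0.18, and 6 and 16 members were called lower at 240 against 0 min, beside 13.7% and 15.8% of all genes called lower.

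Lists of genes that serve the respiratory chain held called genes at 240 against 0 min, where 18.5% of all tested genes were called in shLAD1 cells and 20.2% in scramble cells. The shares in the ribosome and assembly factor lists were below these. Of 11 subunits and carriers that the naming rule left out, 1 rose and 0 fell in shLAD1 cells. In scramble cells 1 rose and 2 fell. Cytochrome c (CYCS), the mobile carrier between complexes III and IV, was the gene that rose. It rose by 0.64 ± 0.11 in shLAD1 cells (adjusted p = 0.00477) and by 0.59 ± 0.11 in scramble cells (adjusted p = 0.00683). In scramble cells ETFDH stood at -0.35 ± 0.09 (adjusted p = 0.0273) and NDUFA4L2 at -0.96 ± 0.29 (adjusted p = 0.0446). Of 28 mitochondrial protein import genes, 9 rose in shLAD1 cells and 7 in scramble cells and none fell, among them CHCHD4, the intermembrane space oxidoreductase, and GRPEL1, a partner of mitochondrial Hsp70. GRPEL1 rose by 0.87 ± 0.08 in shLAD1 cells and 0.82 ± 0.08 in scramble cells. Of 77 mitochondrial ribosome genes, 10 rose and 2 fell in shLAD1 cells and 11 rose and 1 fell in scramble cells, with MRPS2 at 0.64 ± 0.09 and 0.65 ± 0.09. Of 46 assembly factors, 3 rose and 2 fell in shLAD1 cells and 3 rose and 3 fell in scramble cells, with NDUFAF4, a complex I assembly factor, at 0.97 ± 0.14 and 0.61 ± 0.14.

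Of 14 transcription regulators of respiratory genes, 6 rose in shLAD1 cells and 6 in scramble cells at 240 against 0 min. PPRC1, a PGC-1 related coactivator, rose by 0.88 ± 0.10 in shLAD1 cells and 0.89 ± 0.10 in scramble cells, and PPARGC1B by 1.82 ± 0.28 and 1.35 ± 0.28. MYC, which also binds many growth genes, rose at 40 min by 1.63 ± 0.14 in shLAD1 cells and by 1.19 ± 0.14 in scramble cells. Of 14 genes of pyruvate entry, 2 rose in shLAD1 cells and 3 in scramble cells, close to the shares of all genes called, and LDHA, the lactate dehydrogenase A subunit, rose by 0.41 ± 0.06 and 0.52 ± 0.06. None of the 14 citric acid cycle genes was called at 240 against 0 min. The median of the 79 respiratory members at 240 against 0 min was -0.03 in shLAD1 cells and -0.05 in scramble cells, beside 0.21 and 0.15 for protein import, 0.30 and 0.13 for the regulators and 0.10 and 0.08 for the ribosome. The assembly factors (-0.01 and -0.02), citric acid cycle (0.03 and -0.01), pyruvate entry (-0.0012 and -0.04) and other subunits and carriers (0.01 and -0.05) had medians as near 0 as the members. Medians over all genes were -0.01 and -0.02.

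**Figure D4:**
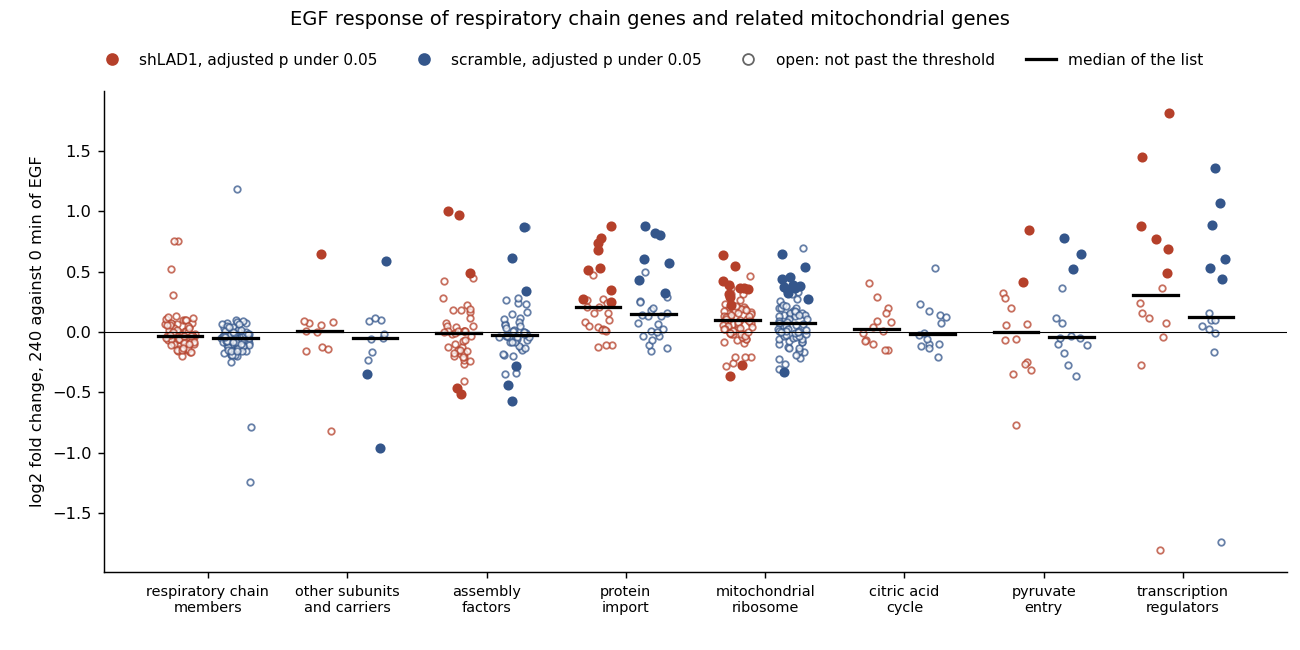
Log2 fold change at 240 against 0 min of EGF for the 79 respiratory chain members and 7 lists of related genes, shLAD1 cells left and scramble cells right in each pair, with the median as a bar. Filled points passed an adjusted p of 0.05: 0 of 79 members in either kind of cell, and 9 and 7 of 28 protein import genes.

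Related lists also held called genes in the mean shLAD1 difference from scramble cells, where 18.6% of all tested genes were called. Of 14 pyruvate entry genes, 8 fell and 1 rose, with LDHB, the other lactate dehydrogenase subunit, at -2.14 ± 0.35, PDHB of the pyruvate dehydrogenase complex at -0.47 ± 0.07 and PDK2, a kinase that inhibits that complex, at 0.71 ± 0.12. Of 14 citric acid cycle genes, 4 fell, among them MDH2 (-0.30 ± 0.03), SUCLA2 (-0.31 ± 0.06) and SUCLG1 (-0.29 ± 0.05). Of 11 subunits and carriers that the naming rule left out, 3 fell: CYCS (-0.44 ± 0.06), COX4I1 (-0.30 ± 0.05) and NDUFAB1 (-0.19 ± 0.04). Of 77 mitochondrial ribosome genes 15 fell, of 28 import genes 2 fell and 1 rose, and of 46 assembly factors 3 fell and 1 rose. Among 14 regulators, the coactivators PPARGC1A (-1.76 ± 0.40) and PPARGC1B (-0.70 ± 0.16) fell. The list medians were -0.23 for pyruvate entry, -0.16 for the citric acid cycle, -0.09 for assembly factors, -0.06 for the ribosome, -0.05 for protein import, -0.03 for the other subunits and carriers and -0.02 for the regulators, beside -0.06 for the respiratory members.

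Whether the EGF response differed between shLAD1 and scramble cells was tested as an interaction. It was called for 0 of 79 members and 0 of 13950 genes at 40 min, and for 0 of both at 240 min (0% of tested genes). At each time 1 member had an unadjusted p under 0.05, beside 0.71% of all genes at 40 min and 0.953% at 240 min. These were COX6B1 at 40 min and UQCRHL, a copy of UQCRH named after its values were seen, at 240 min. Both edgeR and DESeq2 called 0 members. At 40 min the difference of the responses was below 0 for 68 of 79 members, with a median of -0.09, where 48.1% of all genes were below 0. The same measure by replicate showed the 40 against 0 min median of the members at -0.10 and -0.04 in shLAD1 replicates 1 and 2, and at -0.01 and 0.03 in scramble replicates 1 and 2. COX6B1 had 2671 and 2391 at 0 min and 2309 and 2329 at 40 min in shLAD1 cells, against 2497 and 2510 and then 2678 and 2653 in scramble cells. At 240 min the median difference of the responses was 0.03, with 23 of 79 below 0, where 49.7% of all genes were.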

How the data were processed

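Per the labels' protocols, poly-A RNA of 12 HCC70 libraries was prepared with a TruSeq kit. STAR, DESeq2 and hg19 are named in the submitters' processing notes. Which counting tool, annotation and versions were used, and whether strand was, is not given in the sources used here. What the authors deposited is 1 table with a normalized signal per gene symbol and library, and for 1 comparison its log2 fold change with error, a test score and p-values. Divided by each library's smallest value above 0, the deposited signal was a whole number of reads within 0.001 for 100% of values. The deposited log2 fold change lay within 0.01 of shLAD1 over scramble at 0 min for 99.98% of 11243 genes with a mean of at least 50.

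Limma-trend (limma 3.58.1, R 4.3.3, robust) was fitted to log2(normalized count + 1) with 1 mean per group over all 12 libraries, which understates changes of low genes. On the recovered reads, edgeR 4.0.16 and DESeq2 1.42.0 were alternatives, beside other scalings, a pseudocount of 5, no filter, the replicate block, averaged replicates and omitted libraries. The fit was tested on simulated data with independent libraries and changes larger than the falls called here, so that test does not bear on these falls. Exon lengths came from GENCODE v29.

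The members, lists and motifs were chosen with earlier results of these data known. Named members are, per complex and comparison, up to 4 called each way with the smallest adjusted p, the one with the highest mean of each complex, the SDH and subunit c genes and isoform pairs. Up to 3 called genes were named per related list and comparison. Counts cover all members, and the values of 1 member are not reported here.

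Whether numbers 1 and 2 are separate cultures is unstated, so p-values measure only how far these samples spread, which may be technical. Departures of the libraries from their group means correlated at 0.645 to 0.734 for the same number within an shRNA (6 pairs of groups). Between shRNAs they correlated at 0.247 to 0.307 (9 pairs). The main fit did not pair libraries by number, and the number entered as a block only in the alternatives. Both libraries of each group differed by more than counting noise, with a chi-square of 9.04 to 22.6 per degree of freedom.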

Additional observations from a re-analysis of the deposited data

How the results depend on the processing

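Across the alternatives, the 21 members called lower in shLAD1 than in scramble cells over the 3 times kept their direction, and none reversed. COX6B2, whose call is not read as a result, stayed higher. The alternatives reuse the same libraries, so a kept direction is not separate evidence. All 21 falls also stayed called under edgeR, DESeq2, upper-quartile and total-count scaling, a pseudocount of 5 and the replicate block. With no filter on low counts, 17 of the 22 members stayed called, COX6B2 counted in the 22. The share of all genes called in that setting is not given here. The replicate block gave 34 called members, averages of each shRNA and replicate number over the times (2 against 2) gave 0, and leaving out 1 library gave 7 to 23. At single times the replicate block gave 7 at 0 min, 20 at 40 min and 5 at 240 min.

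For EGF at 240 against 0 min, the shLAD1 count of 0 became 2 with the replicate block, 5 where each shRNA had a block of its own, 1 with edgeR, 1 under upper-quartile factors and 6 under total-count scaling. The scramble count became 5, 10, 0, 3 and 16 in that order, and 1 with only the groups compared. At 240 against 40 min, shLAD1 gave 1 with the replicate block and 12 within each shRNA. Scramble gave 2 and 13 there, 1 with edgeR, 1 with DESeq2, 1 with upper-quartile factors, 7 with total-count scaling and 1 with only the groups compared. At 40 against 0 min a block within each shRNA gave 1 in shLAD1 cells. Leaving out 1 library gave 0 to 1 in the scramble comparisons at 240 min and 0 elsewhere. No share of all genes is given here for upper-quartile factors, only the groups compared or omitted libraries in the EGF comparisons. Nor is one given for total-count scaling at 240 against 40 min or the within-shRNA block at 40 against 0 min. These counts describe the settings and are not read as results about the members.

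Total-count scaling moved member medians at 40 against 0 min to -0.13 in shLAD1 and -0.024 in scramble cells, at 240 against 0 min to -0.16 and -0.18, and at 240 against 40 min to -0.022 and -0.17. Upper-quartile factors moved them at 240 against 0 min to -0.084 in shLAD1 and -0.091 in scramble cells, and at 240 against 40 min in shLAD1 cells to 0.028. The cause was not tested. Depth limits the low members: COX6B2 and the 7 that missed the filter rest on few reads. With 2 libraries per group, the tests at single times called 0 members. Falls as large as those called over the 3 times can therefore be missed at a single time.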
